A study of Mus musculus with 20 samples.

Results

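Glycolysis and the targets of hypoxia-inducible factors (HIF) were followed through 39 genes, taken by symbol from the deposited tables of a mouse bladder cancer model. All 39 members were listed in the tumor tables among 28025 genes, and 37 in the cell line tables among 14701 genes. Aldoc and Ak4 were not analysed in the cell lines. Of the members, 16 encode glycolytic enzymes, counted from hexokinase to lactate dehydrogenase, and 23 are other HIF targets, and the 2 sets were described apart.

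The study holds 20 RNA-seq libraries of MB49, a mouse bladder cancer cell line, in 4 groups of 5. Y-negative cell line libraries (BN2, BN3, BN6, BN9 and BN10) and Y-positive cell line libraries (MB8, MB11, MB17, MB19 and MB34) came from cells kept in DMEM with 10% fetal bovine serum. The tumors, labelled MN11 to MN15 where Y-negative and MP6 to MP10 where Y-positive, grew under the skin of wild-type male C57BL/6 mice. The genotype names a tumor cell that lacks or holds the Y chromosome. Every tumor also holds cells of a male host that carry a Y chromosome. Age of the mice, how the Y chromosome was lost and whether the libraries of a group come from separate clones, cultures or animals are not stated in the labels, so p-values reflect only how these libraries vary, which may be technical.

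Glycolysis splits glucose into pyruvate, and lactate dehydrogenase turns pyruvate into lactate that leaves the cell through monocarboxylate carriers. HIF is a dimer of an oxygen-sensitive alpha chain, such as HIF1A, and ARNT. In well oxygenated cells the EGLN prolyl hydroxylases mark the alpha chain for VHL-driven degradation, and when oxygen falls the chain persists and turns on genes of glucose uptake, glycolysis, blood vessel growth, pH control and mitochondrial turnover. In solid tumors these genes are best known as markers of poorly perfused regions.

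The HIF dimer binds DNA at ACGTG or GCGTG, read as CACGT or CACGC on the other strand. The 250 bases before the annotated start were available for 36 of the 39 members in a RefSeq table of build GRCm38.p6, with Ero1l matched through its synonym Ero1a. Bnip3l, Ndrg1 and Slc2a3 had no entry. ACGTG was present on either strand in 17 of these 36 windows (47.2%), in 21.5% of the windows of the 10706 genes tested in tumors that matched by symbol, and in 16.5% of all 27026 windows in the table. GCGTG was present in 20 members (55.6%), in 44.2% of the tested genes and in 28.3% of all windows. Either word was present in 28 members (77.8%), against 55.4% and 38.6%, and CACGTG counted once on each strand. Median GC content was 61.6% in the members, 59.6% in the tested genes and 52% in the whole table, and the part of base composition in these shares was not tested.

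The promoters of the 5 members that passed the test between tumors, and of Kdm3a, whose genotype change differed between tumors and culture, are printed 5′ to 3′ on the strand of the gene. Both words and their reverse complements are in capitals. A match describes letters only. Vegfa lies at chr17:46032378-46032627 (minus strand), Adm at chr7:110627407-110627656 (plus strand) and Eno2 at chr6:124769674-124769923 (minus strand). Egln3 lies at chr12:54203875-54204124 (minus strand), Ero1l at chr14:45318573-45318822 (minus strand) and Kdm3a at chr6:71632918-71633167 (minus strand).
Vegfa: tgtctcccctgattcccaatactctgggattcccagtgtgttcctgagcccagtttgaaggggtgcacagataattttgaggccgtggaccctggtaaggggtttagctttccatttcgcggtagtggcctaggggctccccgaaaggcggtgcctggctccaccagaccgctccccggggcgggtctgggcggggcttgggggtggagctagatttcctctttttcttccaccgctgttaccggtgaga
Adm: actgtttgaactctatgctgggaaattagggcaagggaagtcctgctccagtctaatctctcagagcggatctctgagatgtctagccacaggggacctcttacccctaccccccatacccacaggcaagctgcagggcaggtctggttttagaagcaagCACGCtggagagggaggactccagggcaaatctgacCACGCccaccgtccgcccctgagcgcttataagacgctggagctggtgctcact
Eno2: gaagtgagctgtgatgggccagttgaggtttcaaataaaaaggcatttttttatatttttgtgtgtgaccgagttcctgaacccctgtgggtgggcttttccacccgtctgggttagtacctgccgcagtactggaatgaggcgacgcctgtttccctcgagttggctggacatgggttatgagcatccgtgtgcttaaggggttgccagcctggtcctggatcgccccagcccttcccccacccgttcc
Egln3: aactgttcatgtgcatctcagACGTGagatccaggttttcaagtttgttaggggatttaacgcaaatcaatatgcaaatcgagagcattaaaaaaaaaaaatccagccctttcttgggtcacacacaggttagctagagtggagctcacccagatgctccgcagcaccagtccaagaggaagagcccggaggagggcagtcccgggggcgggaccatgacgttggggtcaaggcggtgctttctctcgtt
Ero1l: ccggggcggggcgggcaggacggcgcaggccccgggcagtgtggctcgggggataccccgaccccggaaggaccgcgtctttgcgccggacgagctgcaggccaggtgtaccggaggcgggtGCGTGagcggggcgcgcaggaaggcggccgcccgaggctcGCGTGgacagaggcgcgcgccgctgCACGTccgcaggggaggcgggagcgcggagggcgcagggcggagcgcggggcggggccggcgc
Kdm3a: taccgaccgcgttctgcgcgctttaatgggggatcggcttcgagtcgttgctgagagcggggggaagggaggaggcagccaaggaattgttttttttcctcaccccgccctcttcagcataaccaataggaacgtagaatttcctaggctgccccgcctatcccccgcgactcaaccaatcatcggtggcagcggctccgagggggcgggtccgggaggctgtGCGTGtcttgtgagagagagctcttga
The windows of Vegfa and Eno2 held neither word, Egln3 held 1 ACGTG, Adm held 2 GCGTG read from the other strand, Kdm3a held 1 GCGTG, and Ero1l held 1 ACGTG and 2 GCGTG.

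Library totals ran from 14557118 to 20866142 reads in the cell lines and from 14856008 to 21180885 in the tumors. Summed Y-linked transcripts stood at 0 to 0.0521 CPM (read count scaled to a common library total) in Y-negative and 12.6 to 100.2 CPM in Y-positive cell lines (Kdm5d and Uty), and at 17.9 to 29.7 CPM in Y-negative and 135 to 234 CPM in Y-positive tumors (with Ddx3y and Eif2s3y), so every library matched its label in direction. Of the urothelial markers, the keratin genes Krt8 (352 to 1072 CPM in culture and 2369 to 3615 CPM in tumors) and Krt18 were abundant, while Krt5, Krt7, Cdh1 and the uroplakin gene Upk1a stayed under 10 CPM in every library, Upk2 was at 0 in all Y-negative tumors, and Upk3a was not in the tables. The 5 Y-negative tumor libraries fell into 2 sets: MN12 and MN15 were both above MN11, MN13 and MN14 for 21% of the 14783 genes tested and both below for 39.5%. Results between tumors are therefore also given without either set.

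Measured per transcript length in FPKM (CPM divided by transcript length in kilobases, made by the authors), the order of the members was led by glycolytic enzymes in every group. In Y-positive tumors Gapdh stood at 3641 ± 362, the pyruvate kinase gene Pkm at 3005 ± 532 and the lactate dehydrogenase gene Ldha at 2920.2 ± 337 FPKM (SD, n = 5). Pkm and Ldha did not differ beyond their spread. Next came the aldolase gene Aldoa at 1779.6 ± 173 and Pgk1, the phosphoglycerate kinase gene of the X chromosome, at 1514 ± 217 FPKM. At the bottom of the order were Slc2a3, P4ha2 and Ak4, with 0.747 ± 0.236 FPKM for Ak4, a mitochondrial adenylate kinase gene. The ranks from 1 to 7 (Gapdh, Pkm, Ldha, Aldoa, Pgk1, Eno1 and Tpi1) were the same in Y-negative tumors. Summed over the 16 glycolytic enzymes, the share of all reads was 1.84% ± 0.137 in Y-negative and 1.78% ± 0.146 in Y-positive tumors, and these groups overlapped. Summed over the other 23 targets it was 0.462% ± 0.0533 (0.406% to 0.545%) in Y-negative and 0.345% ± 0.0131 (0.328% to 0.365%) in Y-positive tumors, and these groups did not overlap. Abundant genes weigh most in this sum, with means of 922 against 574 CPM for Ero1l and 782 against 523 CPM for Ndrg1. For 5 of the 23 the fitted level was lower in Y-negative tumors. No background was computed for such sums.

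Between tumors, 5 of 39 members passed edgeR's quasi-likelihood test at an adjusted p under 0.05 (12.8% of the members, beside 2.45% of all 14783 genes tested). The angiogenic growth factor gene Vegfa, the enolase gene Eno2, the prolyl hydroxylase gene Egln3 and the oxidoreductase gene Ero1l were higher in Y-negative tumors, and Adm, which encodes the vasodilating peptide adrenomedullin, was lower. The background was 1.45% called higher and 1% called lower. Among glycolytic enzymes 1 of 16 passed, and among other targets 4 of 23. The log2 change (Y-negative minus Y-positive) was above 0 for 32 of 39 members with a median of 0.21, beside 48.8% and a median of -0.01 over all genes. The count was lower without MN12 and MN15, at 22 of 39 (56.4%, beside 47.3% of all genes). It was 25 without MN12 alone and 31 without MN11, MN13 and MN14. For 8 members the 2 groups did not overlap (20.5% of members, beside 5.45% of all genes). The members were proposed with earlier results of these libraries known, so these shares describe the list and test nothing.

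**Figure D1:**
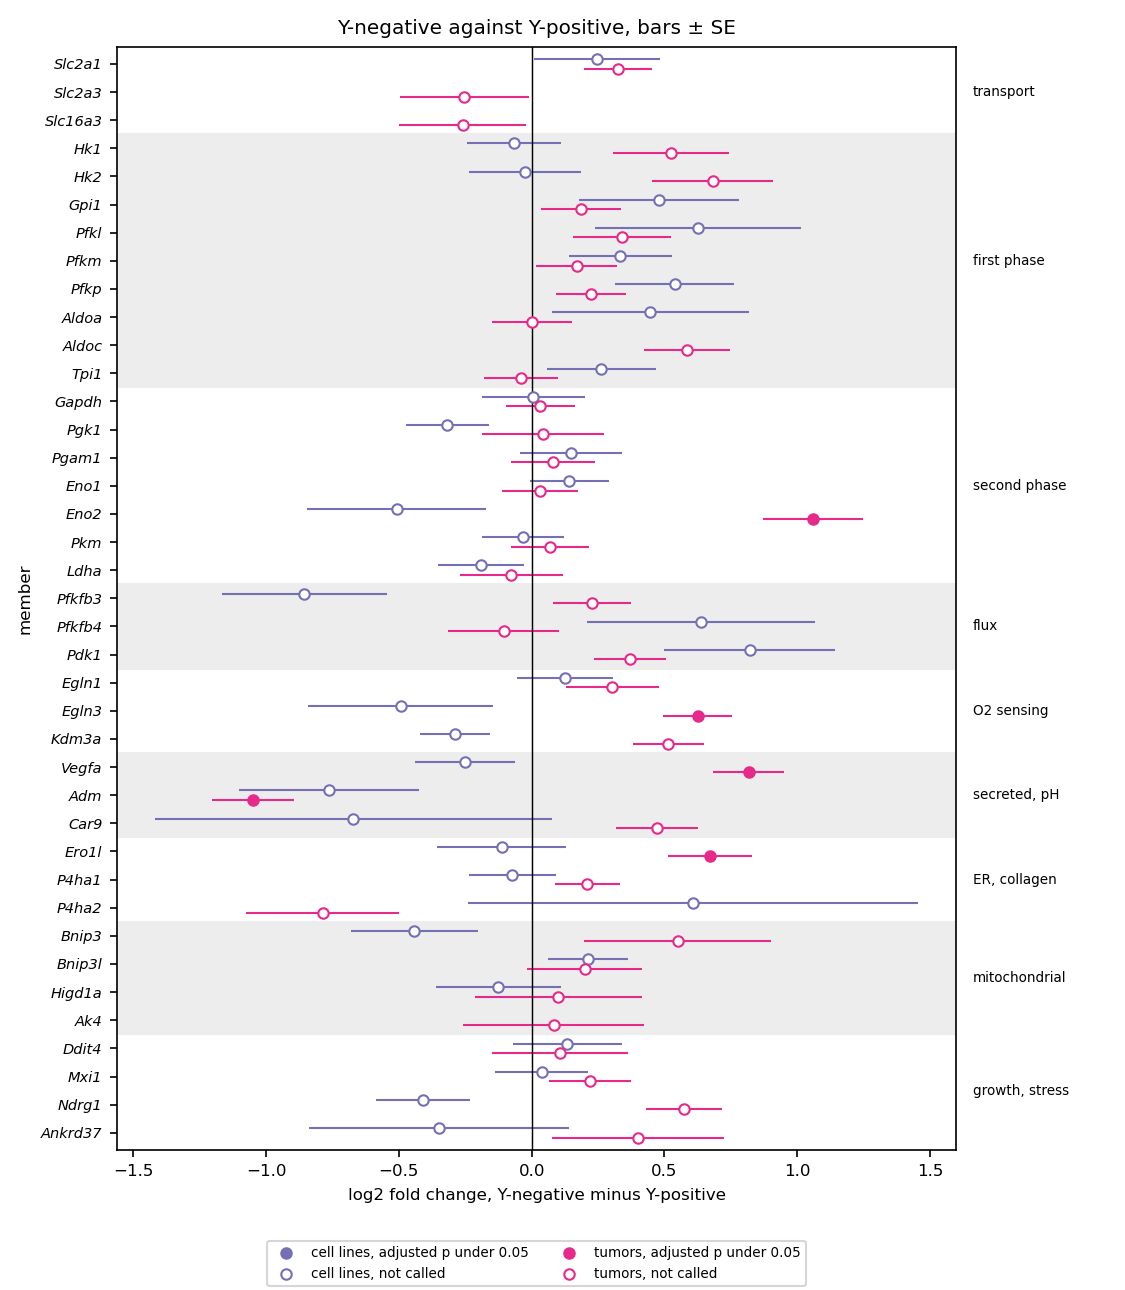
Log2 fold change of each member, Y-negative minus Y-positive, with its standard error, in cell lines and in tumors (5 against 5 libraries each). Members lie on both sides of 0 in cell lines, where none passed the test, and 32 of 39 lie above 0 in tumors, with Adm at -1.05 as the lowest.

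Among secreted factors, Vegfa (ENSMUSG00000023951) stood at 210.1, 178, 147, 189 and 164 CPM in MN11 to MN15 and at 102, 116, 83.6, 94.7 and 105 CPM in MP6 to MP10. All 5 Y-negative tumors were above all 5 Y-positive ones. The means were 178 ± 24.0 and 100.1 ± 11.9 CPM (SD, n = 5), and the level fitted by edgeR, from which all folds between groups here are taken, was 1.76-fold higher (log2 0.82 ± 0.13 SE, adjusted p = 0.0114). In culture the order was not the same, with 226, 372, 212, 222 and 179 CPM in BN2, BN3, BN6, BN9 and BN10 and 284, 257, 322, 257 and 264 CPM in MB8, MB11, MB17, MB19 and MB34. There the groups overlapped, BN3 being the highest of all 10 libraries and the other Y-negative ones lower than every Y-positive library. In bulk tissue, fewer cells of a type and less RNA per cell cannot be told apart.

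Adm (ENSMUSG00000030790) moved the other way. It stood at 32.8, 41.9, 32.1, 29.6 and 26.9 CPM in MN11 to MN15 and at 66.9, 82.9, 62.2, 63.5 and 60.5 CPM in MP6 to MP10. No Y-negative tumor reached the lowest Y-positive one, and the fitted level was 2.07-fold lower (means 32.6 ± 5.66 against 67.2 ± 9.08 CPM, log2 -1.05 ± 0.16, adjusted p = 0.00584). In culture the libraries stood at 15.8, 10.4, 2.92, 9.85 and 8.80 CPM (Y-negative) and 13.6, 13.4, 20.2, 17.4 and 13.3 CPM (Y-positive), where BN2 overlapped the Y-positive range and the change was -0.76 ± 0.34 (adjusted p = 0.280). Car9, which encodes the cell-surface carbonic anhydrase that exports acid, stood at 117, 134, 103, 129 and 93.5 CPM in the Y-negative and 82.0, 108, 67.6, 72.6 and 83.3 CPM in the Y-positive tumors. Only MP7 lay inside the Y-negative range, and the change of 0.47 ± 0.16 did not pass (adjusted p = 0.112).

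In oxygen sensing, Egln3 (ENSMUSG00000035105), whose product hydroxylates the HIF alpha chain and whose gene is itself a HIF target, stood at 237, 228, 264, 283 and 223 CPM in Y-negative and 199, 168, 133, 151 and 144 CPM in Y-positive tumors. The groups did not overlap, with MP6 the nearest to the Y-negative range, and the fitted level was 1.54-fold higher (log2 0.62 ± 0.13, adjusted p = 0.0264). Egln1, the main oxygen sensor among the hydroxylases, had a change of 0.30 ± 0.18 and overlapping groups (99.6 to 159.8 and 84.0 to 153 CPM). The histone demethylase gene Kdm3a (ENSMUSG00000053470), whose enzyme also uses oxygen, stood at 109, 99.1, 96.5, 112 and 95.6 CPM against 86.5, 52.0, 69.1, 68.0 and 81.4 CPM. Its groups did not overlap either, at 102 ± 7.57 and 71.4 ± 13.4 CPM, but its change of 0.51 ± 0.13 missed the threshold (adjusted p = 0.0589).

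Ero1l (ENSMUSG00000021831), which drives disulfide bond formation in the endoplasmic reticulum, stood at 1063, 949.6, 804, 1112 and 684 CPM in Y-negative and 589, 663, 451, 559 and 607 CPM in Y-positive tumors. MN15 was the lowest Y-negative library and still above MP7, the highest Y-positive one. The fitted level was 1.59-fold higher (log2 0.67 ± 0.16, adjusted p = 0.0449), and the call was lost without any 1 of MN11, MN13, MN14, MP6, MP8, MP9 or MP10. The call of Egln3 was lost on removal of any 1 of the same libraries except MP6. Of the collagen prolyl hydroxylases, P4ha1 had a change of 0.21 ± 0.12 and P4ha2, at 3.73 ± 1.38 against 6.34 ± 2.12 CPM, one of -0.79 ± 0.29 (adjusted p = 0.141). Both overlapped between groups.

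**Figure D2:**
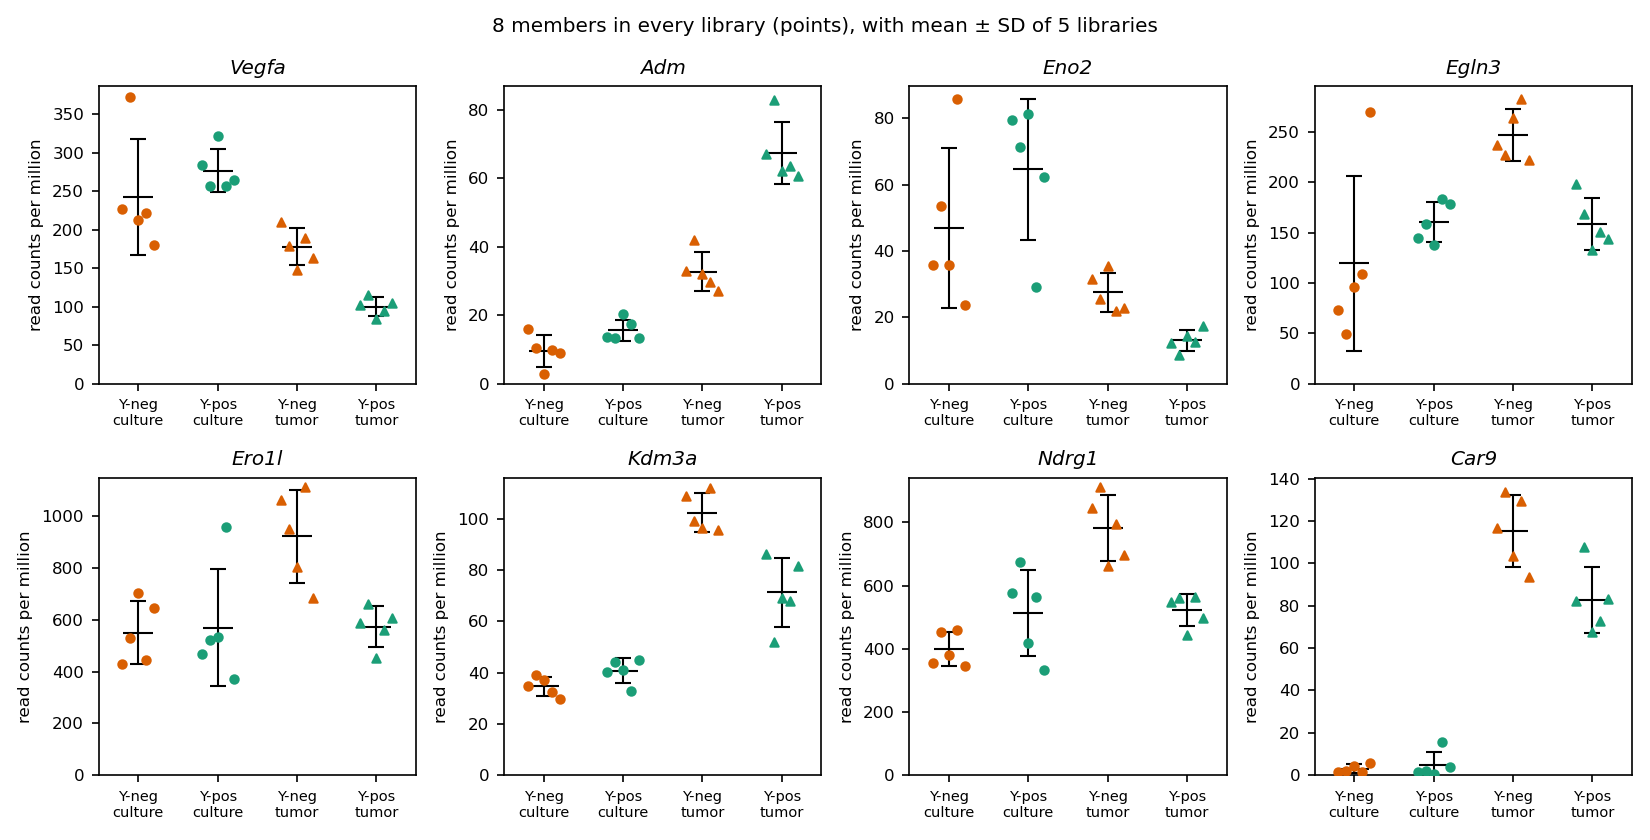
CPM of Vegfa, Adm, Eno2, Egln3, Ero1l, Kdm3a, Ndrg1 and Car9 in each of the 20 libraries, with the mean and SD of each group of 5. In tumors the 5 Y-negative points lie above the 5 Y-positive ones in every panel but 2: Adm, where they lie below, and Car9, where MP7 at 108 CPM lies within the Y-negative range.

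Among growth and stress regulators, Ndrg1 (ENSMUSG00000005125), a differentiation and stress gene, came closest to the threshold. It stood at 844, 913, 661, 797 and 696 CPM in Y-negative and 547, 561, 445, 563 and 497 CPM in Y-positive tumors. The groups did not overlap and the change was 0.57 ± 0.14 (adjusted p = 0.0544). Ankrd37 (0.40 ± 0.32), the mTORC1 inhibitor gene Ddit4 (0.11 ± 0.26) and the MYC antagonist gene Mxi1 (0.22 ± 0.15) all overlapped and did not pass. None of the 4 mitochondrial members passed, and the sign of their changes rested on MN12 and MN15. With all libraries the changes ran from 0.08 (Ak4) to 0.55 (Bnip3), and without MN12 and MN15 all 4 were below 0, at -0.24 (Bnip3), -0.15 (Bnip3l), -0.42 (Higd1a) and -0.08 (Ak4). Bnip3, a receptor that marks mitochondria for removal, stood at 230.3, 661, 225, 219 and 465 CPM in Y-negative and 183, 158, 275, 345 and 282 CPM in Y-positive tumors. MN12 and MN15 alone exceeded the highest Y-positive library (adjusted p = 0.368).

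The lower part of glycolysis, from Gapdh to lactate, held 7 members, of which 6 had changes within 0.08 of 0 between the tumor genotypes. The change was 0.03 ± 0.13 for Gapdh, 0.04 ± 0.23 for Pgk1, 0.08 ± 0.16 for Pgam1, 0.03 ± 0.14 for Eno1, 0.07 ± 0.15 for Pkm and -0.08 ± 0.19 for Ldha on the log2 scale, and none passed. For 5 of them these values lie between opposite signs in the fits without MN12 and MN15 and without MN11, MN13 and MN14. In turn, the change was -0.39 and 0.49 for Pgk1, -0.41 and 0.28 for Ldha and -0.13 and 0.32 for Pgam1. It stayed small for Gapdh (-0.01 and 0.06) and Eno1 (0.04 and -0.02). Eno2 (ENSMUSG00000004267), the enolase isozyme best known from neurons, was the exception. It stood at 31.6, 25.6, 35.5, 21.9 and 22.8 CPM in Y-negative and 12.2, 8.54, 14.5, 12.7 and 17.3 CPM in Y-positive tumors, again with no overlap. The fitted level was 2.09-fold higher (log2 1.06 ± 0.19, adjusted p = 0.0150), and without MN11 the call was lost (log2 1.02, adjusted p = 0.0515). Several of these abundant genes, Gapdh and Ldha among them, have near-identical processed copies in the mouse genome, so their reads may have been split with those copies and their levels are uncertain.

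In the upper part of the pathway, which traps and splits glucose, none of 9 members passed, though 8 had a change above 0. Aldoc, an aldolase isozyme of brain, stood at 34.4, 47.0, 35.1, 40.5 and 38.9 CPM in Y-negative and 22.1, 20.8, 31.3, 28.9 and 26.8 CPM in Y-positive tumors. The groups did not overlap and the change was 0.59 ± 0.16 (adjusted p = 0.0725). The main isozyme, Aldoa, was level (1857 ± 189 and 1844 ± 179 CPM, log2 0.00 ± 0.15). The hexokinase genes Hk2 (0.68 ± 0.23, adjusted p = 0.115) and Hk1 (0.53 ± 0.22, adjusted p = 0.180) overlapped between groups. For the phosphofructokinase genes the changes were 0.34 ± 0.18 (Pfkl), 0.17 ± 0.15 (Pfkm) and 0.22 ± 0.13 (Pfkp), for the isomerase genes 0.19 ± 0.15 (Gpi1) and -0.04 ± 0.14 (Tpi1).

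Transport and flux control gave no call between tumors. The glucose carrier gene Slc2a1 stood at 382, 346, 302, 399 and 297 CPM in Y-negative and 295, 309, 238, 260.3 and 264 CPM in Y-positive tumors, and MP7 alone reached into the Y-negative range (change 0.32 ± 0.13, adjusted p = 0.166). Slc2a3 (-0.25 ± 0.24) and the lactate exporter gene Slc16a3 (-0.26 ± 0.24) had changes below 0 with overlap. Pdk1, whose kinase keeps pyruvate out of mitochondria, stood at 132, 174, 124, 139.7 and 144 CPM in Y-negative and 124, 105, 110.1, 105 and 108 CPM in Y-positive tumors. Only MP6 touched the Y-negative range, at the level of MN13, and the change was 0.37 ± 0.14 (adjusted p = 0.140). Pfkfb3 (0.23 ± 0.15) and Pfkfb4 (-0.10 ± 0.21), which set the level of the activator of phosphofructokinase, overlapped between groups.

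The number of calls between tumors moved with the Y-negative libraries used. Without MN12 and MN15, 9 of 39 members passed: Vegfa, Eno2, Egln3, Ero1l, Kdm3a, Ndrg1, Hk1 and Hk2 higher and Adm lower. The number of all genes called rose from 362 of 14783 to 3630 of 15396, so the share of members called was near that of all genes. MN12 and MN15 were set apart from these same data. Without MN11, MN13 and MN14, 0 passed with edgeR, and 21 genes were called in all. For the 5 members called with all libraries the changes kept their sign: Vegfa stood at 0.78 and 0.83 in these 2 fits, Adm at -1.18 and -0.91, Eno2 at 1.11 and 0.95, Egln3 at 0.64 and 0.56, and Ero1l at 0.71 and 0.57. Hk2 went from 0.86 to 0.32 and Hk1 from 0.72 to 0.14. The sign differed between the 2 fits for 17 of 39 members, none of them called in either, among them Bnip3 (-0.24 and 1.23), Ankrd37 (-0.34 and 1.05) and Higd1a (-0.42 and 0.61).

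The 2 sets of Y-negative tumors divided the members in shares near those of all genes. MN12 and MN15 were both above MN11, MN13 and MN14 for 11 members (Slc16a3, Aldoa, Tpi1, Pgk1, Pgam1, Ldha, Pdk1, Bnip3, Bnip3l, Higd1a and Ankrd37), which is 28.2% beside 21% of all genes. They were both below for 14, which is 35.9% beside 39.5% (among them Hk1, Hk2, Pfkl, Pfkm, Pfkp, Egln1 and Egln3), and neither for 14. Ankrd37 stood at 23.3, 57.9, 21.6, 23.0 and 49.5 CPM in MN11 to MN15, and Pgk1 at 1878, 3413, 1651, 1771 and 2492 CPM. Both were highest in MN12 and next in MN15. Hk1 was the reverse, at 358, 202, 328, 358 and 222 CPM. Median transcript length, as implied by the counts and FPKM, was 1036 bases for the members above and 1836 for those below. The slope of log2 CPM on log2 transcript length was taken over all genes, relative to the mean of the tumors. It was -0.132 and -0.121 in MN12 and MN15 and 0.218 to 0.267 in the other 3 Y-negative tumors. In MP6 to MP10 it was 0.0837, -0.0596, -0.165, -0.283 and -0.0265. MN12 and MN15 thus lay within the Y-positive range, and MN11, MN13 and MN14 lay above it. Markers of neutrophils summed to 229.98 and 197 CPM in MN12 and MN15 and to 49.8 to 128 CPM in the other Y-negative tumors, with all 5 markers present, and those of red blood cells to 1706 and 2675 against 420 to 782 CPM. Markers of proliferating cells summed to 1427 and 1589 against 2150 to 2284 CPM. T cell markers summed to 51.3 and 49.2 against 28.9 to 44.8 CPM. Endothelial markers summed to 55.6 and 76.5 against 84.9 to 110.6 CPM, and fibroblast markers to 692 and 891 against 1084 to 1677 CPM. The sums of macrophage, urothelial, skeletal muscle and adipocyte markers did not divide the 2 sets. The part of length, of these cells or of the libraries in the division was not tested.

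**Figure D3:**
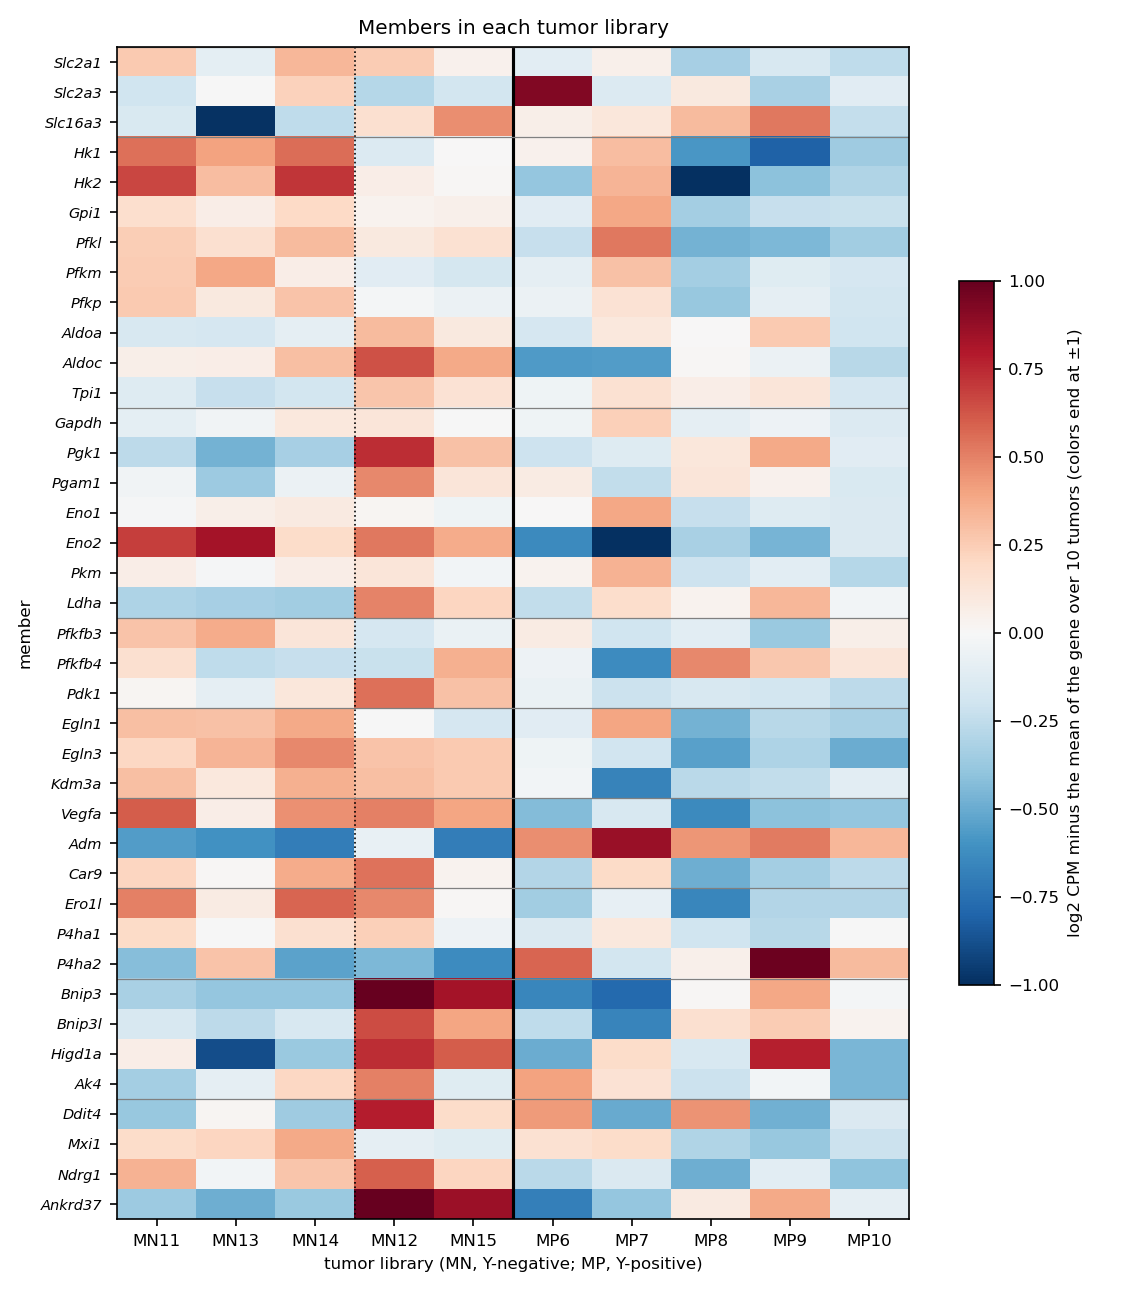
Heatmap of log2 CPM of each member minus its mean over the 10 tumors, with the Y-negative libraries split into MN11, MN13 and MN14 and MN12 and MN15, followed by MP6 to MP10. Colors end at ±1. Bnip3 and Ankrd37 are strongest in MN12 and MN15, whereas Vegfa and Adm separate all 5 Y-negative from all 5 Y-positive libraries.

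No marker of T cells, macrophages, neutrophils, endothelial cells or skeletal muscle was called, of fibroblast markers 1 of 6 was higher and 2 were lower in Y-negative tumors, and of urothelial markers 1 of 10 was higher and 1 lower. Summed urothelial markers stood at 3551 to 4143 CPM in Y-negative and 4473 to 5566 CPM in Y-positive tumors, with no overlap and with Upk2 at 0 in the former. Krt8 (means 2530 and 3173 CPM) and Krt18 (1260 and 1651 CPM) weigh most in this sum. Krt14 stood at 22.4 against 107.5 CPM. Gata3 (7.49 against 3.38 CPM), Trp63 (3.22 against 1.91 CPM) and Pparg (2.32 against 2.25 CPM) had the higher mean in Y-negative tumors. No background was computed for this sum. Markers of endothelial cells, the main target of the VEGFA protein, summed to 55.6 to 110.6 and 64.7 to 92.1 CPM, with all 6 present. Summed fibroblast markers ran from 692 to 1677 and from 1116 to 2028 CPM. Their part in the changes of the members was not tested.

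In the cell lines no member passed: 0 of 35 tested members by edgeR at an adjusted p under 0.05, beside 0.0321% of all 12446 genes (0.0161% in each direction), and 0 by DESeq2 and by limma-voom. At an unadjusted p under 0.05 edgeR gave 6 members, Pfkfb3, Pdk1, Pfkp, Adm, Ndrg1 and Kdm3a (17.1%, beside 16.9% of all genes, so a share near the background). The changes ran from -0.86 ± 0.31 (Pfkfb3, adjusted p = 0.204) to 0.82 ± 0.32 (Pdk1, adjusted p = 0.233), 17 of 35 were above 0 (beside 52% of all genes), and no member separated the 2 groups (beside 3.82% of all genes). The medians were 0.14 for 15 glycolytic enzymes and -0.12 for 20 other targets. Slc2a3 and Slc16a3 had too few reads to be tested.

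The median coefficient of variation of the tested members was 31.4% in Y-negative and 19.1% in Y-positive cell lines, beside 24.7% and 18.9% over all tested genes, whereas in tumors it was 18.6% and 17.7%, beside 23.6% and 23.2%. BN10 was the highest of the 5 Y-negative libraries for 19 of 35 members and for 10 of 15 glycolytic enzymes, beside 32.6% of all genes. Aldoa stood at 357, 491, 932, 350.2 and 1566 CPM in BN2, BN3, BN6, BN9 and BN10, and Gpi1 at 152, 194, 299, 174 and 535 CPM. BN10 and BN6 were the 2 highest for both enzymes, and the Y-positive libraries ran from 402 to 693 CPM (Aldoa) and from 156 to 242 CPM (Gpi1). Pdk1 followed the same order, at 30.5, 32.2, 38.4, 19.4 and 68.6 CPM, against 12.2, 15.8, 23.1, 31.3 and 19.0 CPM in MB8 to MB34. Egln3 ranged from 49.5 to 270.2 CPM in the Y-negative cell lines, with BN10 far above the others. Aldoa, Gpi1, Ldha, Adm and Bnip3 lie on chromosome 7, where all genes shifted by a median of 0.16 (log2) in BN10 and by -0.28 in BN2. Chromosome 6, which holds Eno2 and Kdm3a among others, shifted by -0.16 in BN10 and -0.22 in BN2. Chromosome 17, which holds Vegfa, shifted by -0.24 in BN10 and 0.10 in BN2. Chromosome 15, which holds Ndrg1 and Pfkm, shifted by 0.098 in BN10 and 0.082 in BN2. With chromosome shifts removed, 0 members passed with edgeR (3 of all genes), and the part of the shifts was not tested further.

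The genotype change in tumors minus that in cell lines was tested directly over all 20 libraries. It passed for 4 of 37 members (10.8%, beside 4.56% of 13740 genes), all with a higher value in tumors (background 2.22% higher and 2.34% lower). It was above 0 for 21 of 37 members, beside 44.9% of all genes. Vegfa changed by -0.25 in culture and 0.82 in tumors, a difference of 1.02 ± 0.24 (adjusted p = 0.0244). For Eno2 the difference was 1.52 ± 0.41 (adjusted p = 0.0399), from -0.51 to 1.06. Its libraries stood at 35.8, 53.5, 35.8, 85.9 and 23.7 CPM in Y-negative and 79.5, 71.3, 81.2, 29.1 and 62.2 CPM in Y-positive culture, where BN9 was the highest Y-negative and MB19 the lowest Y-positive library and the groups overlapped.

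Ndrg1 stood at 355, 453, 379, 458 and 345 CPM in Y-negative and 578, 676, 419.7, 565 and 332 CPM in Y-positive culture, and only MB34 and MB17 fell within or below the Y-negative range. Its difference was 0.94 ± 0.23 (adjusted p = 0.0283). Kdm3a stood at 34.8, 39.2, 37.0, 32.6 and 29.6 and 40.4, 44.2, 40.9, 33.0 and 45.1 CPM, with MB19 among the Y-negative values, and its difference was 0.76 ± 0.19 (adjusted p = 0.0270). In all 4 genes the Y-negative mean was the lower one in culture and the higher one in tumors. Adm was lower in both kinds, and its difference was -0.33 ± 0.38 (adjusted p = 0.653). Egln3 (1.08 ± 0.39, adjusted p = 0.0993), Pfkfb3 (1.04 ± 0.36, adjusted p = 0.0873) and Ero1l (0.74 ± 0.30, adjusted p = 0.140) did not pass. Without MN11 or without MP8 none of the 37 members passed with edgeR, and without MN14 1 did. Over 25 alternatives the call was lost in 2 for Vegfa, 3 for Kdm3a, 7 for Ndrg1 and 13 for Eno2. No fit of this difference removed the chromosome shifts or the length trend, and their part in it was not tested.

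Tumors stood above culture for most members in both genotypes. In Y-negative samples 29 of 37 members passed (78.4%, beside 56% of all 13740 genes), 25 higher and 4 lower in tumors (background 28.1% and 27.9%). In Y-positive samples 27 passed (73%, beside 61.8%), 22 higher and 5 lower (background 31.7% and 30.1%). The same 21 members were called higher in both genotypes and the same 4 lower (Vegfa, Eno2, Pfkfb3 and Ddit4). Median changes were 0.70 and 0.62, beside 0.02 over all genes in each, and 31 and 26 members had a change above 0, beside 50.8% and 50.9% of all genes. Groups did not overlap for 20 members (beside 34.7% of all genes) and 24 members (beside 46.4%). Leaving out Slc2a3 and Slc16a3, which passed the filter on low counts only through the tumors, 27 of 35 were called in Y-negative samples (23 higher and 4 lower), beside 56.4% (25.7% and 30.7%) of the 12433 genes also tested between cell lines. In Y-positive samples 25 of 35 were called (20 higher and 5 lower), beside 62.5% (29.4% and 33.1%). These counts were added after the data were seen. These comparisons share libraries with those between genotypes, and sample kind, host cells and any batch between the 2 kinds of table cannot be told apart.

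**Figure D4:**
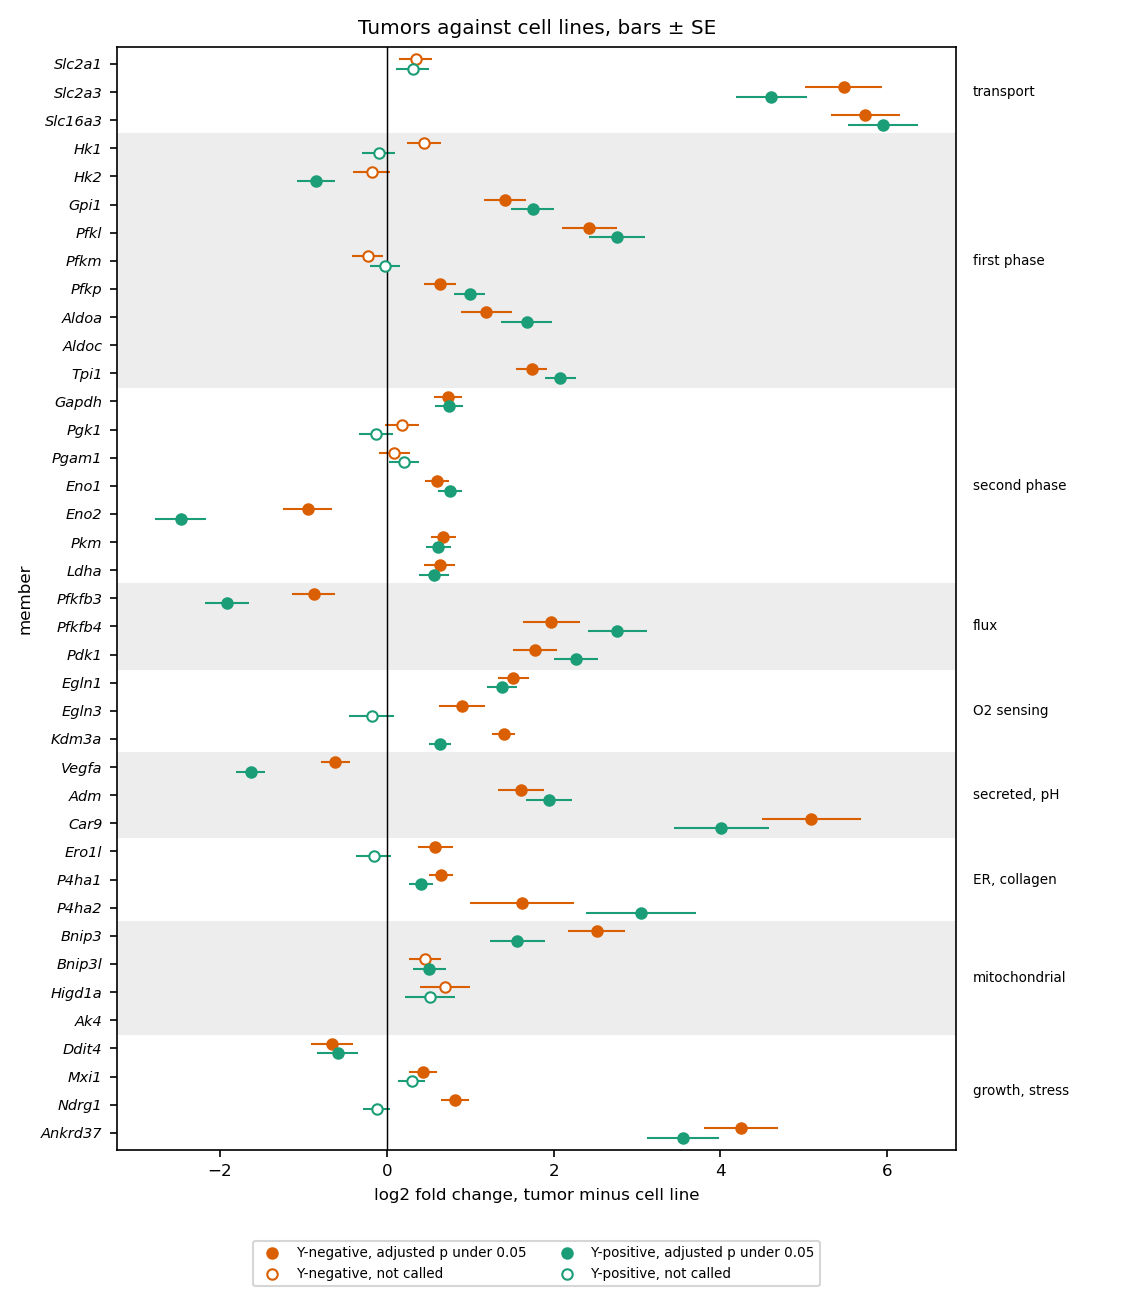
Log2 change of each member from cell lines to tumors, with its standard error, for Y-negative and Y-positive libraries (5 tumors against 5 cell line libraries each). Slc16a3, Slc2a3, Car9 and Ankrd37 lie above 3 on the log2 scale in both genotypes, while Vegfa, Eno2, Pfkfb3 and Ddit4 lie below 0 in both.

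Of the 3 carriers, Slc16a3 and Slc2a3 were called higher in tumors and Slc2a1 was not. Slc16a3, the lactate exporter, stood at 0.0522 to 0.610 and 0.0687 to 0.540 CPM in the cell lines and at 10.7 to 26.8 and 17.9 to 28.3 CPM in the tumors, for Y-negative and Y-positive in turn (log2 5.74 ± 0.41 and 5.95 ± 0.42). Slc2a3 went from 0 to 0.390 and 0.206 to 0.771 to 7.84 to 12.4 and 7.64 to 20.5 CPM (log2 5.48 ± 0.46 and 4.61 ± 0.43). Both were near 0 in culture, had too few reads to be tested between cell lines, and entered the model through the tumors, so their calls followed from that filter and the size of their fitted changes depends on a few reads. Slc2a1, the carrier with most reads in culture, changed by 0.35 ± 0.19 and 0.31 ± 0.19, neither of which passed. Leukocytes also express Slc2a3 and Slc16a3, and summed macrophage markers stood at 51.3 to 308 and 121 to 201 CPM in the cell lines (5 of 7 markers listed there) and at 1033 to 1955 and 1010 to 1878 CPM in the tumors (all 7). The part of host cells was not tested.

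Car9 rose from 3.06 ± 1.97 and 4.65 ± 6.34 CPM in culture to 115 ± 17.1 and 82.7 ± 15.5 CPM in tumors (log2 5.09 ± 0.60 and 4.01 ± 0.57). In culture MB19 alone held 15.8 CPM, and no other library exceeded 5.79 CPM. Ankrd37 rose by 4.25 ± 0.44 and 3.55 ± 0.43, Bnip3 by 2.52 ± 0.34 and 1.57 ± 0.33, and Egln1 by 1.51 ± 0.19 and 1.38 ± 0.19. CAIX, the product of Car9, is widely used as a tissue marker of hypoxia.

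Of 15 tested enzymes of glycolysis, 9 were called higher in tumors in each genotype (60%, beside 28.1% and 31.7% of all genes). Eno2 was called lower in both genotypes and Hk2 in Y-positive samples (1 and 2 of 15, beside 27.9% and 30.1%). The rises were led by Pfkl (2.43 ± 0.33 and 2.76 ± 0.33), Tpi1 (1.74 ± 0.19 and 2.08 ± 0.19), Gpi1 (1.41 ± 0.25 and 1.75 ± 0.26) and Aldoa (1.19 ± 0.30 and 1.68 ± 0.31). Gapdh rose by 0.73 ± 0.17 and 0.75 ± 0.17 and Pkm by 0.68 ± 0.15 and 0.62 ± 0.15. Pgk1 (0.18 ± 0.21 and -0.13 ± 0.21), Pgam1 (0.09 ± 0.18 and 0.21 ± 0.18) and Pfkm (-0.23 ± 0.18 and -0.02 ± 0.18) did not pass in either. The summed share of reads of the glycolytic enzymes rose from 1.03% ± 0.191 to 1.84% in Y-negative and from 1.01% ± 0.0876 to 1.78% in Y-positive samples. Culture and tumor did not overlap, and no background was computed for such sums. Pdk1 rose by 1.78 ± 0.26 and 2.27 ± 0.27 and Pfkfb4 by 1.97 ± 0.34 and 2.76 ± 0.35, whereas Pfkfb3 fell by 0.88 and 1.92 on the log2 scale.

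Vegfa fell from culture to tumor by 0.62 in Y-negative and by 1.63 in Y-positive samples (adjusted p = 0.00406 and 5.11e-08). Eno2 fell by 0.95 and 2.47 (adjusted p = 0.00868 and 4.51e-07). Calls in 1 genotype alone were those of Egln3, Ero1l, Ndrg1 and Mxi1 (higher in Y-negative tumors), Bnip3l (higher in Y-positive tumors) and Hk2 (lower in Y-positive tumors, -0.85 ± 0.23). Of these 6 the difference between genotypes passed for Ndrg1 only. Scaling by library totals alone moved the median of all genes from 0.02 to 0.20 and 0.21 and the share of calls that were higher from 50.2% to 61.7% and from 51.4% to 61.3%. It gave 32 members (29 higher) and 30 members (26 higher). The sign of the uncalled changes of Hk2 in Y-negative and of Egln3, Ero1l, Ndrg1, Hk1, Pfkm and Pgk1 in Y-positive samples turned with it.

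Within enzyme families, the share of 1 isozyme in the summed FPKM of the family is independent of the scale of a library. In 17 exact permutation tests (two-sided, 252 arrangements, smallest possible p 0.00794) at least 3 had to pass together for any to pass after adjustment, and none passed at an adjusted p under 0.05. Of the 17, 5 had an unadjusted p under 0.05. Aldoc made up 1.76, 1.89, 1.78, 1.98 and 1.84% of Aldoa and Aldoc in MN11 to MN15 and 1.14, 0.950, 1.51, 1.22 and 1.43% in MP6 to MP10. The groups did not overlap (exact permutation p = 0.00794, adjusted 0.0675). Eno2 made up 1.78, 1.55, 1.87, 1.16 and 1.46% of Eno1 and Eno2 in the Y-negative and 0.689, 0.394, 1.02, 0.857 and 1.09% in the Y-positive tumors, with the same exact permutation p and no overlap. Both isozymes remained minor in every tumor, under 2% of their family.

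P4ha2 stood at 3.72% ± 1.35 of the 2 collagen hydroxylases in Y-negative and 7.25% ± 2.91 in Y-positive tumors (exact permutation p = 0.0238, adjusted 0.135). Shares in culture and in tumors are set side by side without a test. Slc2a3 was at 2.32% and 3.39% of Slc2a1 and Slc2a3 in tumors, Y-negative first. Eno2 was at 4.50% and 6.72% in culture against 1.56% and 0.809% in tumors. Bnip3l was at 64.2% and 54.2% of the pair with Bnip3 in culture and at 32.4% and 35.8% in tumors. Pfkfb4 was at 10.6% and 3.73% of the pair with Pfkfb3 in culture and at 42.9% and 48.0% in tumors. Hk2 was at 19.5% and 19.2% of the 2 hexokinases in culture and at 13.6% and 12.5% in tumors.

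**Figure D5:**
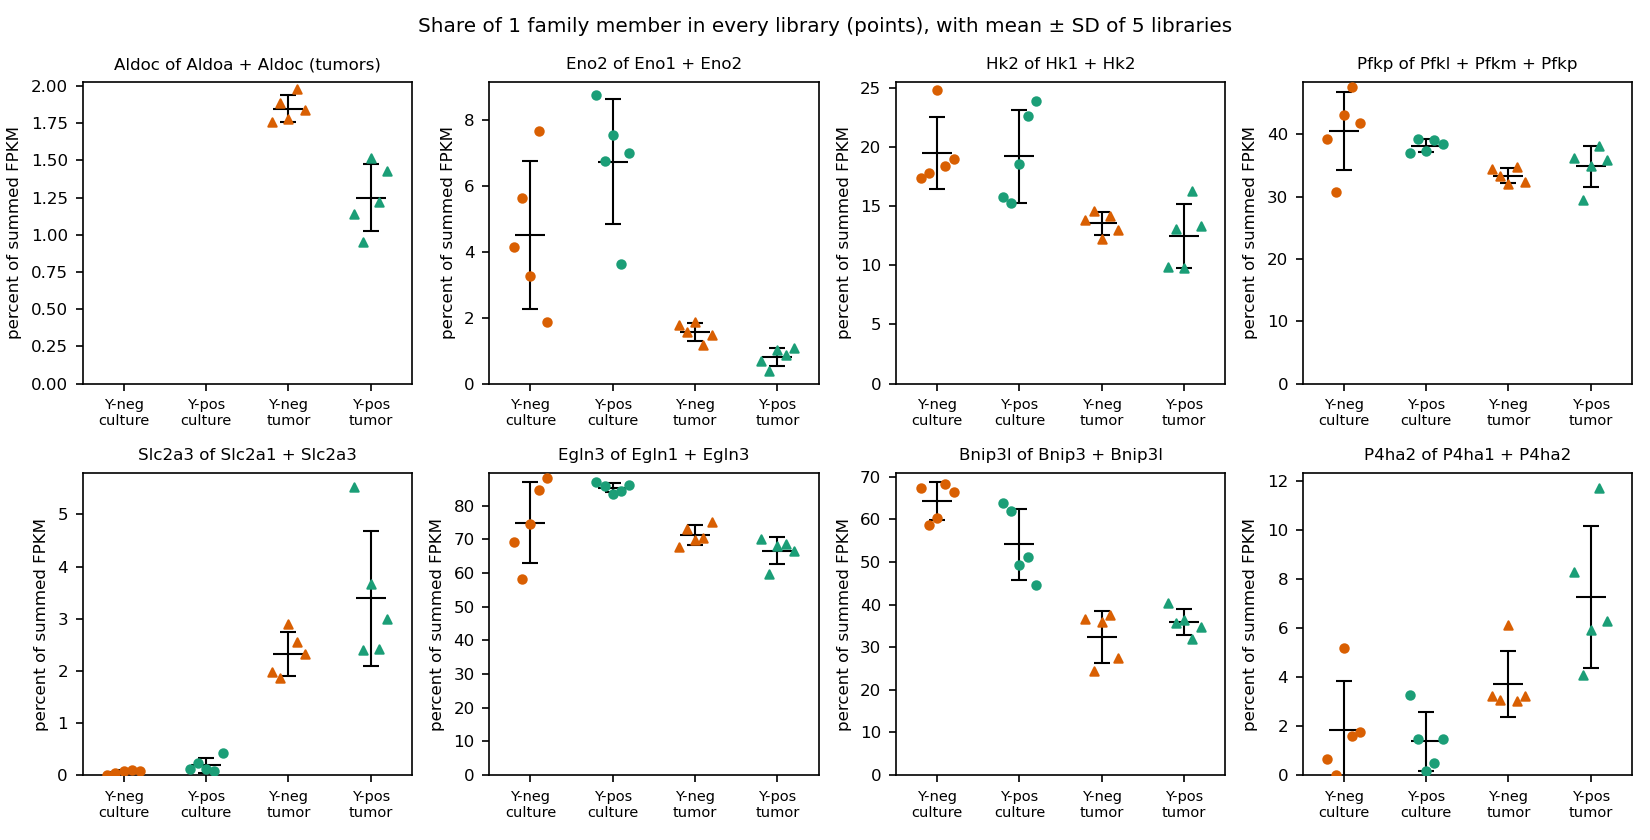
Share of 1 isozyme in the summed FPKM of its family, in percent, in each library, with the mean and SD of each group of 5 (Aldoc in tumors alone). Aldoc and Eno2 separate the tumor genotypes at 1.85% against 1.25% and 1.56% against 0.809%, while the shares of Hk2, Pfkp, Slc2a3, Egln3, Bnip3l and P4ha2 overlap.

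Other genes of the pathway were counted from 3 further lists, beside 2.45% of all genes called between tumors. Each list held 1 or 2 calls. Of the HIF machinery, 1 of 11 tested genes passed between tumors: Cited2, which encodes a competitor of HIF for its coactivators, at 123 ± 11.3 against 80.3 ± 15.0 CPM (0.61 ± 0.13, adjusted p = 0.0359, no overlap). Hif1a itself changed by 0.16 ± 0.15 and did not pass. Of other HIF-responsive genes, 2 of 27 passed, the histone demethylase gene Kdm4b (0.90 ± 0.22, adjusted p = 0.0481) and the glycogen synthase gene Gys1 (0.65 ± 0.16, adjusted p = 0.0484), both with overlap. Of other enzymes and carriers of glucose and pyruvate, 1 of 23 passed: Ldhb, the heart-type lactate dehydrogenase, was lower in Y-negative tumors (2.91 ± 0.368 against 5.75 ± 1.09 CPM, -0.99 ± 0.23, adjusted p = 0.0406). The calls of Cited2, Kdm4b, Gys1 and Ldhb were lost in 9, 9, 10 and 13 of 19 alternatives.

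In the cell lines 0 of 10, 0 of 20 and 0 of 21 genes of these lists passed with edgeR. The difference between tumors and cell lines, called for 4.56% of all genes, passed for 3 of 10 genes of the machinery, the coactivator genes Ep300 (1.19 ± 0.28, adjusted p = 0.0243) and Crebbp (1.17 ± 0.29, adjusted p = 0.0276) and Arnt (0.89 ± 0.23, adjusted p = 0.0305). It also passed for 1 of 23 responsive genes, the repressor gene Bhlhe40 (1.56 ± 0.37, adjusted p = 0.0259), and for 1 of 22 enzymes, the fructose bisphosphatase gene Fbp2 of gluconeogenesis, which was lower (-1.68 ± 0.35, adjusted p = 0.0143). The calls of Ep300, Crebbp, Arnt, Bhlhe40 and Fbp2 were lost in 2, 6, 7, 4 and 0 of 25 alternatives. From culture to tumor, 1 gene of the machinery rose and 5 fell in Y-negative samples, and 1 rose and 7 fell in Y-positive samples, of 10. Of 23 responsive genes 14 rose and 4 fell in Y-negative and 9 rose and 7 fell in Y-positive samples, and of 22 enzymes and carriers 5 rose and 8 fell, and 7 rose and 5 fell. Between cell lines only 20 responsive genes and 21 enzymes and carriers had enough reads to be tested. Genes beyond these entered the model through the tumors, so calls of them as higher would follow from that filter. The counts were not corrected for this. The shares of all genes were 28.1% higher and 27.9% lower in Y-negative and 31.7% and 30.1% in Y-positive samples, and the counts of responsive genes in Y-positive samples and of enzymes and carriers in both lie near them.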

How the data were processed

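RNA-seq tables of 20 libraries were used. The tests took the deposited read counts, which are whole numbers for every gene. FPKM values computed by the authors, which stand beside the counts per the file headers, served for order between genes, isozyme shares and transcript length. Tools listed in the submitters' processing notes are RSEM 1.3.1, STAR 2.7.0d, cutadapt 2.3, MultiQC 1.8 and FastQC 0.11.5, with build mm10. The sources used here do not give their roles, the annotation release or the strand setting. In 1 table a column of library values is headed by the code of another library, and it was not used.

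In R 4.3.3, edgeR 4.0.16 fitted the counts after TMM scaling and filterByExpr (count of at least 10, total of at least 15). A gene was called where its quasi-likelihood test, adjusted by Benjamini-Hochberg over all genes tested, gave a p under 0.05. Genotypes were compared within cell lines and within tumors in separate fits, and the difference and tumor minus culture came from 1 model of 20 libraries. Alternatives used DESeq2 1.42.0, limma 3.58.1, other scalings and filters, length and chromosome corrections and libraries left out. Fits were tested on simulated counts: of 50 genes each, changes of 2-fold were recovered for 22 and of 4-fold for 43 in tumors (14783 genes), and for 27 and 44 in cell lines (12446 genes).

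The members, lists and tests were chosen with earlier results of these data known. Values in each library are given for members called in a genotype comparison and for the member with the smallest p between tumors in each of 9 role groups. Of 3 further pathway lists, up to 4 called genes a list are named. Car9, Hk1, Ankrd37, Pgk1, Aldoa and Gpi1 are given by library outside that rule, chosen after their values were seen. Symbols were taken by gene ID where a table lacked them. Aldoa is listed under 2 gene IDs, of which the main one was used. Promoter windows were taken from RefSeq.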

Additional observations from a re-analysis of the deposited data

Results flagged for a closer look

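Among 152 sets of a gene in a group of 5 libraries, 10 held 1 library whose gap to its nearest neighbor was over 0.71 of the range of the group, where chance gives about 1 in 20 sets. In Y-positive tumors these were MP6 for Slc2a3 (20.5 CPM) and Pdk1 (124 CPM) and MP7 for Pfkl (259 CPM) and Adm (82.9 CPM). In Y-negative tumors it was MN13 for P4ha2 (6.14 CPM). In Y-negative cell lines it was BN9, the lowest, for Egln1 (26.3 CPM), BN10 for Egln3 (270.2 CPM) and BN3 for Vegfa (372 CPM). In Y-positive cell lines it was MB19 for Car9 (15.8 CPM) and Ero1l (960.4 CPM).

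The genotype change differed between tumors and cell lines, by the test of the difference itself, for 4 members: Vegfa (1.02), Eno2 (1.52), Ndrg1 (0.94) and Kdm3a (0.76), on the log2 scale and in edgeR's quasi-likelihood test.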

How the results depend on the processing

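No called result turned its direction under the alternatives run, while 17 uncalled members differed in sign between the 2 sets of Y-negative tumors. Between cell lines 4 genes were called, 472 with DESeq2, 13 with limma-voom, 457 with all 20 libraries in 1 model and 2 to 66 with 1 library left out (66 without BN9), and no member was called in any of these. Between tumors 362 genes were called (59.1% higher), 234 with library totals only (50% higher), 1331 with DESeq2, 3630 without MN12 and MN15 and 21 without MN11, MN13 and MN14. Members called numbered 5, and 8 with DESeq2 and 2 with all 20 libraries in 1 model (37 members tested, without Aldoc and Ak4). They numbered 9 without MN12 and MN15, beside 3630 of 15396 genes, and 0 without MN11, MN13 and MN14. With the length trend removed, 7 members were called (6 higher and 1 lower), beside 524 of 14783 genes. In that fit 33 of 39 members had a change above 0, beside 47.7% of all genes. With 1 library left out the ranges were 80 to 796 genes (80 without MN11 or MP8, 84 without MN14, 796 without MN12) and 2 to 7 members, with 2 without MN11, 7 without MP7 and 3 without any of MN13, MN14, MP8, MP9 or MP10. In the difference 627 genes were called, 1269 with DESeq2 and 171 to 1043 with 1 library left out (171 without MN11, 1043 without MN12), with 0 to 5 members. Between tumor and culture 25 to 31 members passed in Y-negative and 24 to 27 in Y-positive samples with 1 library left out. Isozyme shares gave 0 calls in the alternatives run, which is no sign of stability. With 1 tumor left out, the smallest exact permutation p of a tumor share is 0.0159, beside 0.00794 for a share in cell lines. At least 6 of the 17 tests would then have to pass together for any tumor share to pass. The calls of Vegfa and Adm between tumors were each lost in 1 of 19 alternatives, Eno2 in 3, Egln3 in 8 and Ero1l in 11. The causes were not tested. In the simulated data 6 of 50 changes of 1.5-fold were recovered in tumors and 5 of 50 in cell lines. The changed genes were drawn at random from all tested genes, and the simulation did not model the 2 sets of Y-negative tumors. These shares therefore do not carry over to the members. No paired analysis was possible because the library codes share no numbers between groups that the labels tie to a pair.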
